A study of Mus musculus with 6 samples.

Results

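The genes described here encode mitochondrial chaperones and proteases. They are 10 genes given by symbol: the chaperones Hspd1, Hspe1, Hspa9 and Trap1, and the proteases and protease subunits Lonp1, Clpp, Clpx, Afg3l2, Spg7 and Htra2. All 10 were among the 22310 genes of the table, with between 1112 and 57545 reads for each of them in each library. RNA was sequenced from mammary tumor cells of MMTV-PyMT mice, a model in which the MMTV promoter drives the polyoma middle T oncogene mainly in the mammary epithelium, and the study keeps these mice on the FVB/N background. The labels give the genotype of every library as WT, although MMTV-PyMT mice carry the oncogene, and give no age. The study's methods state the age of the mice as a range of weeks, and its experiments were done in female mice. The cells had been kept in DMEM/F12 with FBS at 2%, insulin at 10 µg/ml, hEGF at 20 ng/ml and penstrep at 1%, and were sorted 1 day after plating. Metastasis-initiating cells (MICs) were gated as Lin-CD24+CD90+, and their counterparts without CD90, the non-MICs, as Lin-CD24+CD90-. Each population gave 3 libraries, numbered 1 to 3. No drug or other agent was given to either population.

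Most mitochondrial proteins are made in the cytosol and enter the organelle unfolded. The chaperone mortalin (Hspa9) pulls them into the matrix, and the chaperonin of Hsp60 and its lid Hsp10 (Hspd1 and Hspe1) gives them a chamber in which to fold. Proteins that misfold or lack a partner are degraded by ATP-driven proteases. Lonp1 and ClpXP work in the matrix, and the m-AAA protease, with Afg3l2 and Spg7 among its subunits, in the inner membrane. Htra2 works in the space between the membranes. The study compared the transcripts of MICs and non-MICs to ask how the programs of these cells differ, mitochondrial metabolism among them.

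Hspd1 and Hspe1 lie head to head on chromosome 1 and are read in opposite directions from a shared promoter. Hspd1 spans 55077835 to 55088243 on the minus strand and Hspe1 55088132 to 55091307 on the plus strand (GENCODE vM21, build GRCm38), so their annotated ends overlap by 112 bases. RefSeq promoter windows (GRCm38.p6, from 250 bases before to 50 bases after a gene's start) were found for 7 of the 10 genes, and none for Hspa9, Afg3l2 and Htra2. They were searched on both strands for GAANNTTC and TTCNNGAA (2 arrangements of the heat shock element), TTGCATCA (the core of the amino acid response element), TGACGTCA (the cAMP response element) and GCATGCGC (the core bound by NRF1). The stretches below are shown because they hold the matches of Hspe1, which had the largest log2 fold change of the 10, and the only matches to the last 2 of these motifs among the 7 genes. Each is written 5′ to 3′ along the gene's strand with the matched letters in capitals, at chr1:55088053-55088082 (plus strand), chr16:4077839-4077868 (minus strand) and chr9:65294163-65294192 (plus strand).
Hspe1: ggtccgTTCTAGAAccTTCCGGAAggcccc
Trap1: gtcgcgcgccaTGACGTCActgagccgccc
Clpx: ttagtctccacGCATGCGCagcgtaaactc

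The Hspe1 stretch holds TTCNNGAA at positions -89 and -79 from the RefSeq start of Hspe1, and the same letters stand at -134 and -144 from the start of Hspd1. The letters between these matches also give GAANNTTC, so the matches overlap. The stretch is upstream of Hspe1 and inside the first exon, untranslated there, of a longer annotated Hspd1 transcript. Of 32851 promoter windows, 8.52% held TTCNNGAA, 7.86% held GAANNTTC and 0.524% held TTCNNGAA at least 2 times. The Trap1 match began at -47 and the Clpx match at -86, for motifs held by 1.79% and 2.71% of windows. Clpp held TTCNNGAA at 33 bases after its RefSeq start. TTGCATCA was in none of the 7 windows and in 0.895% of all windows. A match of letters is a description of the sequence and does not show that a factor binds there.

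Depth ran from 31467281 to 51759769 reads, recovered from the scaled values. Thy1, which encodes the CD90 of the gate, had normalized counts between 301 and 1509 in the MICs and between 12.6 and 21.1 in the non-MICs, so the labels and the sorted marker matched in every library. By limma its adjusted p was 0.816 without a block and 5.31e-05 with the replicate number as a block. Cd24a, the other gene of the gate, ran from 11309 to 19406 in the MICs and from 14009 to 18754 in the non-MICs, while Ptprc and Pecam1 stayed at or below 19.4 in every library. The 5 epithelial markers (Epcam, Cdh1, Krt8, Krt18 and Krt19) summed to between 211658 and 589774 in the MICs and between 277193 and 697460 in the non-MICs. Leukocyte and endothelial markers, of which 4 of 5 and 5 of 5 were in the table, stayed at or below 0.00563% of a library for each list. Of 5 basal markers, 4 were higher in the MICs in all 3 pairs, and their sum ran from 7805 to 293583 in the MICs and from 6649 to 74564 in the non-MICs. Of 5 fibroblast markers 3 were higher in all pairs, with sums of 494 to 1156 and 452 to 601. Without the block 0 genes of both lists were called, while with it limma called 3 basal and 0 fibroblast markers and edgeR 4 and 1, all higher in the MICs. The part of these cells in the results below was not tested, and in sorted populations a change in the share of a cell type and in the RNA per cell cannot be told apart. Libraries of the same number were most alike across all genes, so same-numbered libraries are called pairs below, and the differences within pairs are given beside each fit. The study counts its 3 replicates as independent experiments or tumors. Which of these a pair stands for is not given in the sources used here, and p-values measure the spread between these libraries.

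No member passed the threshold. limma on log2(value + 1) without a block called 0 of the 10 members at an adjusted p under 0.05, and 0 of all 22310 genes (0.0%). At an unadjusted p under 0.05 it held 0 members and 322 of all genes (1.44%). edgeR's quasi-likelihood test on the recovered reads without a block called 0 members and held 1, Hspe1, at an unadjusted p under 0.05, against 0.0% and 1.32% of all genes. With the replicate number as a block, limma called 0 members and 0.13% of all genes, and edgeR called 0 members and 1.41%. At an unadjusted p under 0.05 each of these blocked fits held 2 members, Hspe1 and Lonp1, against 11.2% and 11.7% of all genes. The median log2 fold change (MIC minus non-MIC) was -0.12 over the members and -0.04 over all genes. Over genes with a mean value of at least 100 it was -0.08. Hspe1 had the highest, 0.65, and Lonp1 the lowest, -0.41.

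**Figure D1:**
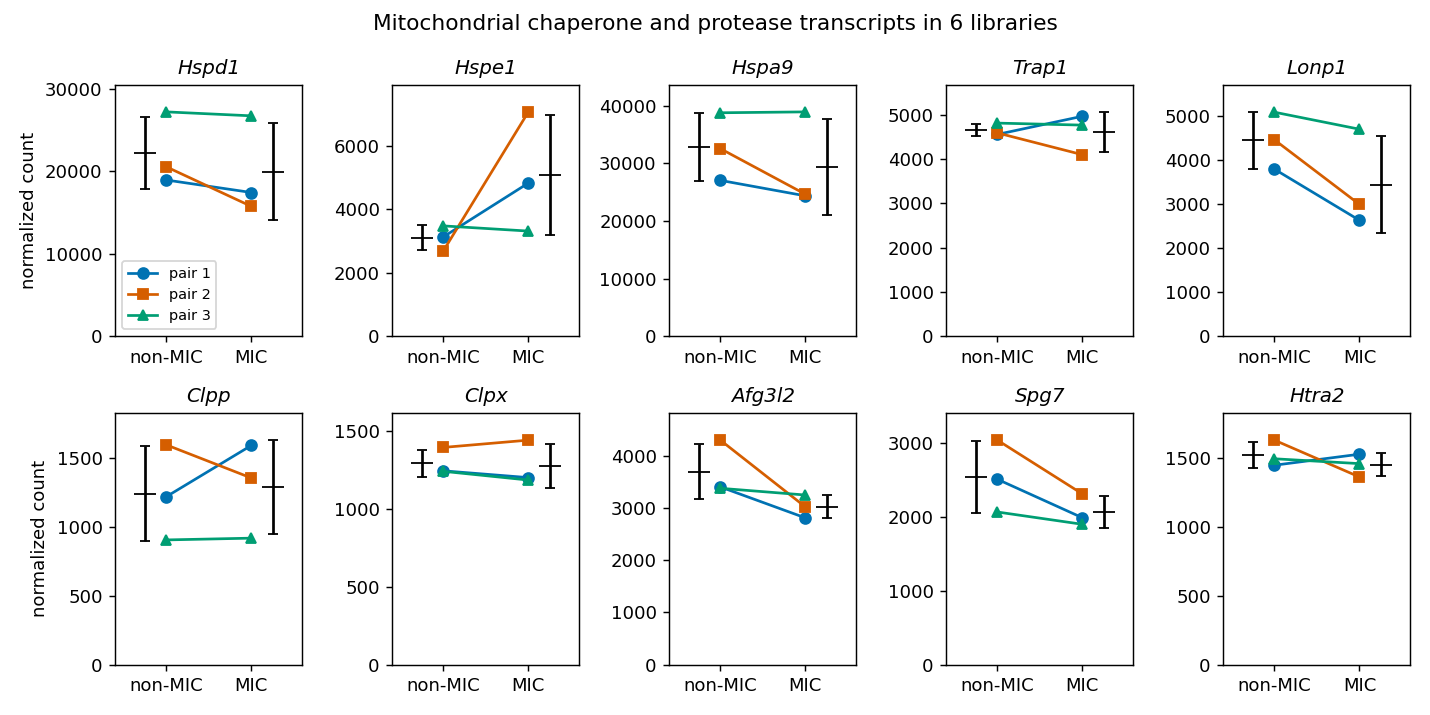
Normalized counts (linear axes from 0) of the 10 genes in the 3 non-MIC and 3 MIC libraries, with lines joining same-numbered libraries and black bars for the mean ± SD of each population (n = 3). Hspe1 is well above the non-MIC library in the MIC library of pairs 1 and 2 and close to it in pair 3, and the Afg3l2 values of the MICs all sit below those of the non-MICs.

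Hspd1, the Hsp60 chaperonin, had normalized counts of 17428, 15745 and 26713 in MIC replicates 1 to 3 and 18941, 20538 and 27192 in the non-MICs. The third pair was the highest in both populations, and the groups overlapped. The log2 fold change of Hspd1 was -0.18 (SE 0.27; 95% interval -0.80 to 0.44; limma, adjusted p = 1.0). It was -0.41 without MIC replicate 3 and -0.02 without non-MIC replicate 3 or without MIC replicate 2.

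Hspe1, the Hsp10 lid that closes the chaperonin, had normalized counts of 4829, 7068 and 3316 in the MICs and 3133, 2692 and 3479 in the non-MICs. The first 2 MIC libraries stood above every non-MIC library, and the third MIC library lay within the non-MIC range, so the groups overlapped. Its log2 fold change was 0.65 (SE 0.29; 95% interval -0.03 to 1.33), with an unadjusted p of 0.0598 and an adjusted p of 1.0 by limma. The differences within pairs were 0.62, 1.39 and -0.07. With the block the unadjusted p was 0.0139 and the adjusted p 0.418, and the blocked edgeR fit gave the lowest adjusted p of any alternative, 0.0778. The log2 fold change was 0.38 without MIC replicate 2 and 0.92 without MIC replicate 3. Hspe1 is also the shortest of the 10 transcripts, with 774 bases, and after a correction for transcript length and GC content it was 0.44, or 0.29 where lengths were taken from each gene's longest transcript.

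Hspa9, mortalin, which lies on chromosome 18 from 34937414 to 34954357, had normalized counts of 24359, 24639 and 38912 in the MICs and 27042, 32547 and 38757 in the non-MICs. The third pair was again the highest, and the groups overlapped. For Hspa9 the log2 fold change was -0.18 (SE 0.26; 95% interval -0.79 to 0.43). With 1 library left out it ran from -0.40 without MIC replicate 3 to -0.05 without non-MIC replicate 3.

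Trap1, the mitochondrial relative of Hsp90, had normalized counts of 4968, 4100 and 4768 in the MICs and 4558, 4592 and 4813 in the non-MICs. It varied least between the pairs among the 4 chaperones, with pair means spanning 0.14 on the log2 scale. Its log2 fold change was -0.02 (95% interval -0.43 to 0.39), and its sign turned with quantile normalization, with DESeq2 and with the correction for length and GC content.

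Lonp1, the ATP-driven protease that clears damaged matrix proteins and binds mitochondrial DNA, had normalized counts of 2640, 3001 and 4710 in the MICs and 3803, 4470 and 5097 in the non-MICs. It was lower in the MIC library of every pair, with differences of -0.53, -0.57 and -0.11 on the log2 scale, while the groups overlapped through the third pair. The resulting log2 fold change was -0.41 (SE 0.26; 95% interval -1.02 to 0.21; limma, unadjusted p = 0.165). Leaving out MIC replicate 3 gave -0.65 and leaving out MIC replicate 1 gave -0.24. With the block the unadjusted p was 0.0305 and the adjusted p 0.423. The correction for length and GC content brought the log2 fold change to -0.16, or to -0.11 by the longest transcript.

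Clpp, the proteolytic core of the ClpXP protease, had normalized counts of 1592, 1355 and 918 in the MICs and 1219, 1595 and 905 in the non-MICs. Its pair differences went both ways, at 0.38, -0.24 and 0.02, and its log2 fold change was 0.06 (95% interval -0.66 to 0.77). Clpx, the unfoldase that feeds Clpp, had normalized counts of 1199, 1439 and 1183 in the MICs and 1243, 1393 and 1239 in the non-MICs. Its groups overlapped, with a log2 fold change of -0.02 (95% interval -0.49 to 0.45) whose sign turned with quantile normalization and with DESeq2, and which was -0.11 after the correction for length and GC content.

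Afg3l2, a catalytic subunit of the m-AAA protease, lies on chromosome 18 from 67404764 to 67449172. Its normalized counts were 2812, 3022 and 3250 in the MICs and 3406, 4302 and 3380 in the non-MICs. It was the only member whose groups did not overlap, which held for 6.24% of all genes. Of all genes 3.55% did so with the MICs lower, and of genes with a mean value of at least 100, 4.82%. The fitted log2 fold change was -0.28 (SE 0.19; 95% interval -0.73 to 0.17; limma, unadjusted p = 0.185). The exact two-sided permutation test gave p = 0.1, the smallest that 3 libraries against 3 allow. It was -0.17 without non-MIC replicate 2 and -0.14 after the correction for length and GC content.

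Spg7, paraplegin, a partner of Afg3l2 in the m-AAA protease, had normalized counts of 1991, 2314 and 1902 in the MICs and 2513, 3043 and 2069 in the non-MICs. The MIC library was the lower in each pair, and the groups overlapped. Its log2 fold change was -0.28 (SE 0.22; 95% interval -0.79 to 0.22) and -0.06 after the correction for length and GC content. Without non-MIC replicate 3 it was -0.42 and without non-MIC replicate 2 it was -0.15. The protein-coding gene Gm20388 overlaps Spg7 on the same strand over 34819 bases and was not in the table. How reads shared with Gm20388 were assigned is not given in the sources used here.

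Htra2, the serine protease of the intermembrane space, had normalized counts of 1529, 1364 and 1461 in the MICs and 1449, 1631 and 1496 in the non-MICs. Its pair means were the closest of the 10, spanning 0.01 on the log2 scale, and its log2 fold change was -0.07 (95% interval -0.51 to 0.37). The correction for length and GC content left it at -0.0010, or at 0.15 when made with the longest transcript of each gene. Htra2 overlaps Aup1 and Loxl3 on the opposite strand, and the strand setting of the counting is not given in the sources used here.

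Hspd1, Lonp1, Afg3l2 and Spg7 were lower in the MICs in all 3 pairs, 4 of 10 members, against 18.8% of all genes and 28.5% of genes with a mean value of at least 100. No member was higher in all 3 pairs, against 12.5% of all genes and 13.1% of those with a mean value of at least 100. Pair 2 held the lowest difference for 8 of the 10, and the share of all genes for which it did so was not counted. The third pair held differences between -0.12 and 0.02 for all 10. Its libraries were also the most alike across all genes, at r = 0.991 on log2 values, against 0.978 and 0.982 for pairs 1 and 2.

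**Figure D2:**
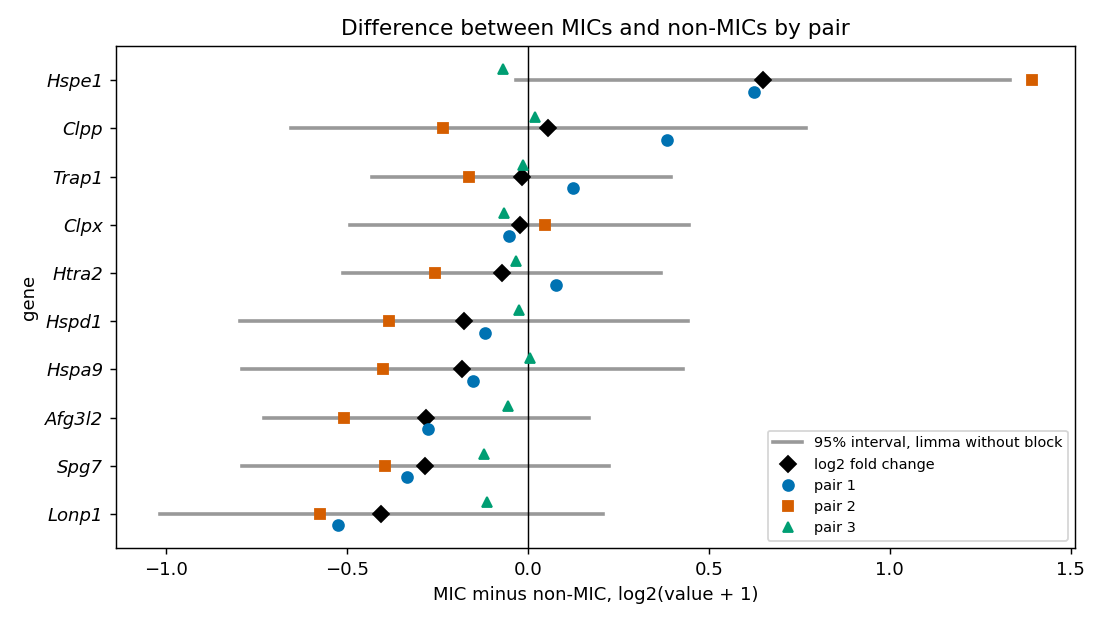
MIC minus non-MIC within each pair on the log2(value + 1) scale (colored symbols), with the log2 fold change (diamonds) and its 95% interval from limma without the block (grey lines), for the 10 genes. The intervals of all 10 genes cross 0, and the third pair lies near 0 for each.

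Levels of different genes were compared as RPKM, the reads per kilobase of transcript after scaling to the library, computed here from 1 annotated transcript of each gene. Hspa9 was the most abundant, with a mean RPKM of 275 ± 78.0 in the MICs and 307 ± 54.9 in the non-MICs (SD, n = 3), and Hspd1 followed with 235 ± 69.7 and 262 ± 51.6. Hspa9 was above Hspd1 within each of the 6 libraries, though the means differed by less than their spread. Hspe1 came next with 187 ± 69.7 in the MICs and 114 ± 14.6 in the non-MICs, and in MIC replicate 2 its level of 261 passed those of Hspa9 and Hspd1.

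Trap1 came after these 3 in all 6 libraries, at 56.8 ± 5.60 in the MICs and 57.3 ± 1.71 in the non-MICs. Lonp1, Clpp and Afg3l2 came next with mean RPKM of 38.3, 36.7 and 31.0 over all libraries, and their order changed from library to library. Htra2 at 24.7 and Spg7 at 22.7 changed places in the same way. Clpx was the lowest in every library, at 12.6 ± 1.42 in the MICs and 12.8 ± 0.867 in the non-MICs, so the 10 transcripts spanned RPKM from 11.7 to 365 in single libraries.

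Genes were compared 2 at a time within a library as the ratio of their normalized counts, with no test. Hspe1 with Hspd1, Spg7 with Afg3l2 and Clpx with Clpp are partners of 1 machine. Hspa9 with Hspd1 and Lonp1 with Clpp belong to different machines. Hspe1 stood at 27.7%, 44.9% and 12.4% of Hspd1 in MIC replicates 1 to 3 and at 16.5%, 13.1% and 12.8% in the non-MICs. Pairs 1 and 2 had the higher ratio in the MICs, pair 3 had nearly equal ratios, and the third MIC library was below every non-MIC library. The log2 ratio was higher in the MICs by 0.83 on average, by 0.69 after the correction for length and GC content and by 0.40 without MIC replicate 2. Hspd1 and Hspe1 have 5 and 6 processed pseudogenes by symbol, of which 1 and 0 were in the table, and how reads shared with them or with the 112 overlapping bases were assigned is not given in the sources used here.

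The ratio of Hspa9 to Hspd1, the import motor to the chaperonin, was the steadiest of those compared. It was 140%, 156% and 146% in the MICs and 143%, 158% and 143% in the non-MICs, with SDs of 0.08 and 0.09 on the log2 scale, and its pair differences lay between -0.03 and 0.03. The ratio of Spg7 to Afg3l2, which encode subunits of the m-AAA protease, was 70.8%, 76.6% and 58.5% in the MICs and 73.8%, 70.7% and 61.2% in the non-MICs. The third pair was the lowest in both populations. Both genes had a log2 fold change of -0.28, and the mean log2 ratio differed by -0.003 between the populations.

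The ratio of Clpx to Clpp was 75.4%, 106% and 129% in the MICs and 102%, 87.3% and 137% in the non-MICs. The MIC library had the lower ratio in pairs 1 and 3 and the higher in pair 2. Lonp1 to Clpp, the 2 matrix proteases, had ratios of 166%, 221% and 513% in the MICs and 312%, 280% and 562% in the non-MICs. The MIC library was the lower in each pair and the third pair was far above the others, so the groups overlapped. The mean log2 difference was -0.46 and became -0.18 with the correction for length and GC content.

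**Figure D3:**
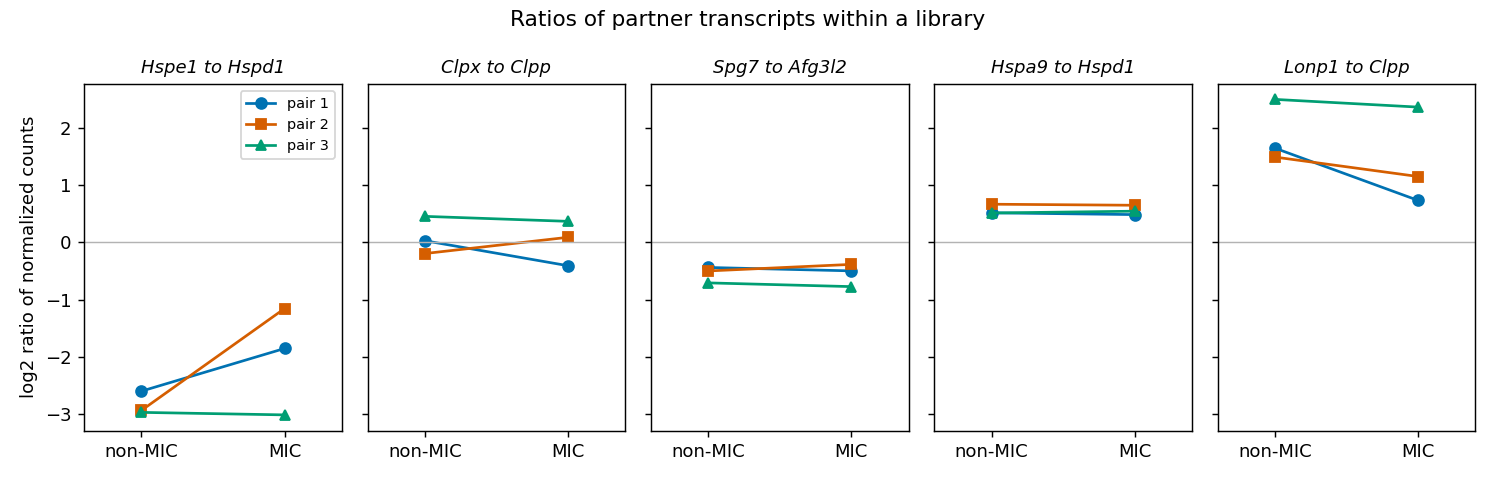
Log2 ratio of the normalized counts of 2 genes within each library (vertical axis, shared), with lines joining the libraries of a pair. Hspe1 to Hspd1 is higher in the MIC library in pairs 1 and 2 and not in pair 3, and Hspa9 to Hspd1 stays between 0.48 and 0.66 in all 6 libraries.

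The span of the pair means was larger than the difference between the populations for every member except Hspe1, Afg3l2 and Htra2. A range over pair means and a difference of population means are unlike measures. The mean log2 value of a pair spanned 0.58 for Hspd1, 0.60 for Hspa9 and 0.63 for Lonp1, with the third pair the highest. Clpp spanned 0.69 with the third pair the lowest. Across the 6 libraries, which share pairs and depth, Hspa9 correlated with Hspd1 at r = 0.972, rank 82 of 22309 other genes, and Lonp1 at 0.884. Hspe1 correlated with Hspd1 at -0.63, Clpp at -0.81 and Spg7 at -0.33. The genes most like Hspd1 among those with a mean value of at least 100 were Gm13509, Nsun2, Tns3, Mfap1a and Otulin, with r between 0.994 and 0.999. Nsun2, an RNA methyltransferase, had normalized counts of 8413, 7643 and 12863 in the MICs and 8961, 9616 and 12815 in the non-MICs.

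The pair differences moved with transcript length and GC content over the whole table. Among 11159 genes with a mean value of at least 100 and a known transcript, the median difference of pair 1 went from 0.27 in the shortest quintile to -0.43 in the longest. The median of pair 2 went from 0.42 in the quintile of lowest GC content to -0.38 in the highest, and pair 3 stayed between -0.08 and -0.03 in every quintile. Hspe1, Clpp and Htra2 were in the shortest quintile, where the median was 0.27 in pair 1 and 0.19 in pair 2. Hspe1 lay above both medians, with 0.62 and 1.39. Clpp, with 0.38 and -0.24, was above the first median and below the second. Htra2, with 0.08 and -0.26, was below both. Lonp1, Clpp, Spg7 and Htra2 were in the quintile of highest GC content, where the medians were -0.28 and -0.38. Lonp1 was below both with -0.53 and -0.57, and Spg7 was close to them with -0.34 and -0.40. Clpp and Htra2, with the values above, lay above both of these medians. The transcripts of cytosolic ribosomal proteins, with a median length of 886 bases, had the same order of pairs as Hspe1. The medians of 83 genes were 0.47, 0.60 and -0.07 in pairs 1 to 3. Of the 83, 14 were higher in all 3 pairs, against 12.5% of all genes and 13.1% of those with a mean value of at least 100. The part of length and GC content in the members' differences was not tested beyond the corrected values given here.

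**Figure D4:**
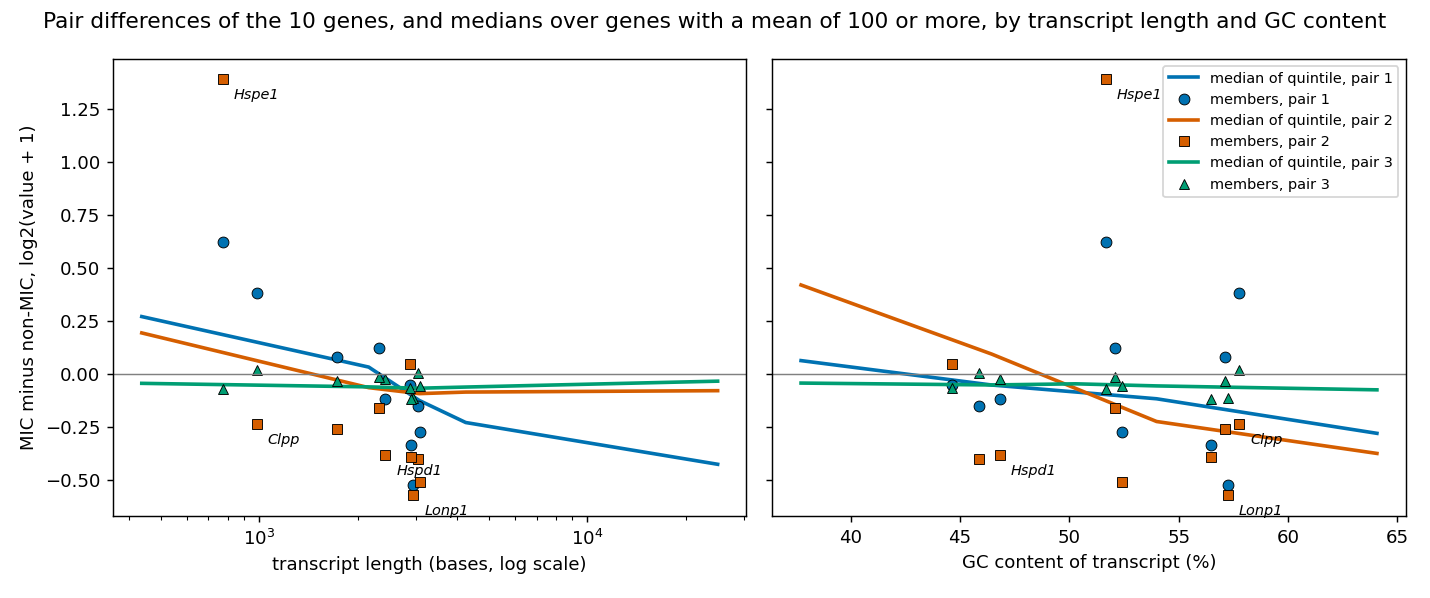
Pair differences on the log2(value + 1) scale of the 10 genes (symbols) and the medians of quintiles of genes with a mean value of at least 100 (lines), against transcript length in bases on a log axis (left) and GC content in % (right). Pair 1 declines with length and pair 2 with GC content, pair 3 is flat, and Hspe1 lies above the lines of pairs 1 and 2.

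The other genes of mitochondrial protein quality control did not pass the threshold. They were 28 genes in 3 lists: 10 co-chaperones and assembly factors, 14 other proteases and 4 membrane scaffolds. limma called 0 of them with or without the block and edgeR called 0 in both fits. At an unadjusted p under 0.05 limma held 1 without and 4 with the block, and edgeR 1 and 3. Of all genes limma held 1.44% without and 11.2% with the block, and edgeR 1.32% and 11.7%. Of the 28, 2 were higher and 4 lower in the MICs in all 3 pairs. The shares were 12.5% and 18.8% of all genes, and 13.1% and 28.5% of genes with a mean value of at least 100. The median log2 fold change of the 28 was 0.14, against -0.04 over all genes, and 0.05 after the correction for length and GC content.

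Yme1l1, the i-AAA protease of the inner membrane that faces the intermembrane space, had the lowest p of these lists by limma without the block. Its normalized counts were 8160, 11282 and 6302 in the MICs and 5123, 5140 and 6257 in the non-MICs. The groups did not overlap, as for 6.24% of all genes, though MIC replicate 3 was only just above non-MIC replicate 3. Its log2 fold change was 0.61 (SE 0.25; limma, unadjusted p = 0.0438, adjusted p = 1.0), and 0.39 after the correction for length and GC content. The pair differences were 0.67, 1.13 and 0.01, against -0.28, -0.51 and -0.06 for Afg3l2, a catalytic subunit of the m-AAA protease. Both genes lay near 0 in the third pair. With the block edgeR gave Yme1l1 an adjusted p of 0.126, and a lower one, 0.0823, to Immp1l, a subunit of the inner membrane peptidase that was picked for this text after its values were seen. Immp1l was higher in the MICs in 2 of 3 pairs, with a log2 fold change of 0.68 (SE 0.42) by limma and 0.13 after the correction for length and GC content.

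Phb, a prohibitin that forms the ring scaffold around the m-AAA protease, had normalized counts of 2500, 2123 and 2179 in the MICs and 1824, 1940 and 2162 in the non-MICs. Its MIC library was the higher in every pair, with a log2 fold change of 0.20 (SE 0.19). Pitrm1, the peptidase that clears cut-off presequences, had a log2 fold change of -0.22 (SE 0.27), lower in 3 of 3 pairs. Dnlz, a zinc finger helper of Hspa9, and Dnajc30, a J-domain protein, had log2 fold changes of -0.10 (SE 0.37) and -0.13 (SE 0.45), also lower in 3 of 3 pairs, and the sign of Dnlz turned with the correction for length and GC content.

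Transcription factors of the mitochondrial stress response did not pass the threshold either. Hsf1, the heat shock factor, which acts through elements of the kind shown in the shared promoter above, had normalized counts of 1305, 1799 and 1392 in the MICs and 2023, 2608 and 1740 in the non-MICs. The MIC library was the lower in each pair, with differences of -0.63, -0.54 and -0.32, and the groups overlapped through MIC replicate 2. Its log2 fold change was -0.50 (SE 0.24; limma, unadjusted p = 0.0742), or -0.36 after the correction for length and GC content. By limma with the block its adjusted p was 0.417.

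Cebpb, a partner of stress factors, had a log2 fold change of -0.53 (SE 0.47), or -0.30 after the correction for length and GC content, and was lower in 3 of 3 pairs. Atf5, linked to the mitochondrial unfolded protein response, was at -0.28 (SE 0.31), at -0.56 and -0.50 in the first 2 pairs and 0.23 in the last, and its corrected log2 fold change was -0.10. Atf4, the factor of the integrated stress response, was at 0.01 (SE 0.25). Ddit3, the stress factor CHOP, was at 0.13 (SE 0.68), with counts from 143 to 552 in the MICs and from 158 to 647 in the non-MICs. The groups overlapped for all 4.

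Chaperones outside the mitochondria were compared in the same way, and 0 of 20 were called by limma or edgeR in any of the 4 fits, with 0 at an unadjusted p under 0.05. Their median log2 fold change was 0.10, and its sign turned, to -0.025, with the correction for length and GC content. Hspa5, the Hsp70 of the endoplasmic reticulum, had normalized counts of 62888, 51300 and 60460 in the MICs and 38858, 46208 and 53315 in the non-MICs, higher in 3 of 3 pairs, with a log2 fold change of 0.34 (SE 0.22). Cct6a, a subunit of the cytosolic chaperonin, was higher in 3 of 3 pairs at 0.38 (SE 0.20). Its groups did not overlap, which held for 6.24% of all genes. Tcp1, another subunit of that chaperonin, was at 0.21 (SE 0.21). Hspa1a, an inducible Hsp70 of the cytosol, was lower in 3 of 3 pairs at -0.38 (SE 0.56), and at -0.10 after the correction for length and GC content. Hspa8, Hsp90aa1, Hsp90ab1 and Hsp90b1 had log2 fold changes between -0.11 and 0.13.

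**Figure D5:**
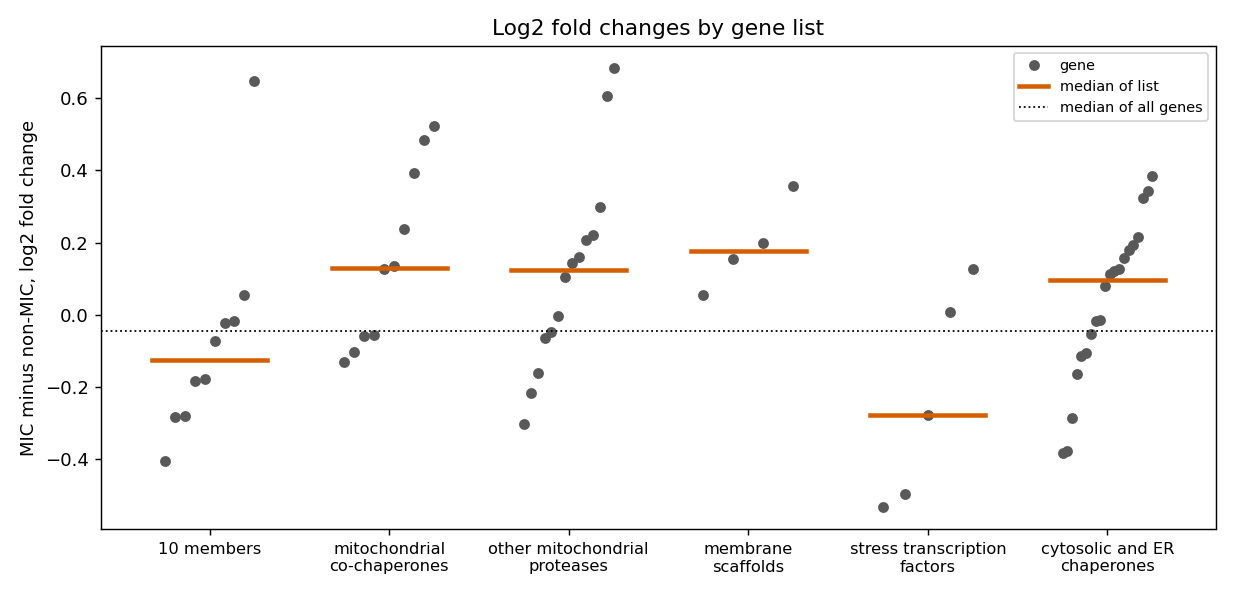
Log2 fold changes (MIC minus non-MIC) of each gene, sorted within its list, for the 10 genes and 5 other lists, with the median of each list (bar) and of all 22310 genes (dotted line, at -0.04). The median of the 10 genes is -0.12, and Hspe1 stands apart above the other 9 at 0.65. Not drawn is the median of genes with a mean value of at least 100, at -0.08.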

How the data were processed

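The authors made stranded mRNA libraries (TruSeq), counted reads per gene and scaled the counts of each library to a common total, so the deposited signal is a normalized count that sums to between 34999999 and 35000001 in each library. Per the labels the submitters' processing notes name STAR and HTSeq with mm10 and GRCm38, and the study's text names Bowtie2 and samtools; their roles and the strand setting of the counting are not given in the sources used here. Divided by what 1 read is worth in its library, 99.97% to 100.0% of values came within 0.01 of a whole number. Reads were not collapsed by molecular identifiers, so depth bounds counting error only.

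The main test was limma 3.58.1 (lmFit and eBayes with a trend, R 4.3.3) on log2(value + 1), without a block, on all 6 libraries. P-values were adjusted after Benjamini and Hochberg over 22310 genes, with a threshold of 0.05. A fold change on this scale understates that of low genes. The recovered reads were tested by edgeR 4.0.16 and DESeq2 1.42.0, and edgeR without a block called 0 genes, against 295 at an unadjusted p under 0.05. The numbers pair the libraries: departures of same-numbered libraries from their population means correlated at 0.573, 0.668 and 0.746, and those of other pairings at -0.19 to -0.54. Alternatives were another pseudocount (0.1 or 10), a filter on low genes (mean at or above the median gene), TMM, quantile normalization, no trend, the replicate block, and leaving out each library or pair. A correction that smoothed each library on transcript length and GC content (splines with 4 degrees of freedom, genes with a mean of at least 100) was added after seeing the data. It first used each gene's longest transcript and was then changed to the APPRIS principal one, with the first results in view, and both are reported.

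Symbols came from GENCODE vM21 for 22161 of 22310 identifiers. The members and lists were chosen with earlier results of these data known. Named besides the members were genes of the mitochondrial quality control lists passing the threshold in limma or edgeR (0 did), the 2 genes of each list with the largest mean pair difference of 1 sign in 3 pairs and a mean of at least 100, the stress factors, 6 other chaperones, genes of the sorting gate and the 5 genes most like Hspd1. An item that this rule covers is not reported here. Protein motif searches were not run here. The scripts were tested on simulated data.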

Additional observations from a re-analysis of the deposited data

How the results depend on the processing

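No member and none of the 28 other quality control genes was called under any of the alternatives, in which adjusted p-values of the members ran from 0.0778 (Hspe1, edgeR with the block) to 1.0, and the members' median log2 fold change stayed between -0.20 and -0.05. The number of genes called among all genes depended on the tool and the block. It was 0 without the block by limma and edgeR and 1 by DESeq2. With the replicate block it was 29 by limma, 32 after TMM rescaling, 15 and 14 after the length and GC correction (principal and longest transcript), 315 by edgeR and 133 by DESeq2. The blocked limma fit called 11, 59 and 0 without replicate 1, 2 and 3. Calls of Thy1 were the only ones of a named gene that the block changed. Leaving out 1 library at a time, without the block, called 0 genes each time, and left the log2 difference of Hspe1 to Hspd1 between 0.40 and 1.33, Clpx to Clpp between -0.26 and 0.13, Spg7 to Afg3l2 between -0.09 and 0.11, Hspa9 to Hspd1 between -0.05 and 0.05, and Lonp1 to Clpp between -0.93 and -0.12.
Signs turned only for log2 fold changes whose 95% interval held 0, as the intervals of all 10 members did. Quantile normalization gave 0.034 for Trap1, 0.035 for Clpx and -0.054 for Hspa8. The length and GC correction gave 0.032 for Trap1 and 0.11 for Dnlz, with or without the replicate block. By the longest transcript it gave 0.0053 for Trap1, 0.15 for Htra2, 0.086 for Dnlz, -0.23 for Ddit3 and -0.022 for Hsp90b1. edgeR without the block gave -0.0061 for Atf4 and 0.025 for Hsp90aa1. DESeq2 gave 0.025 for Trap1, 0.0069 for Clpx and 0.054 for Hsp90aa1, and with the block 0.014, 0.0082 and 0.018. The blocked fit without replicate 1 gave -0.11 for Clpp, -0.087 for Atf4 and -0.022 for Hsp90b1, and without replicate 2 gave 0.055 for Trap1, 0.022 for Htra2, -0.18 for Ddit3, 0.068 for Hsp90aa1 and 0.016 for Hsp90ab1. Leaving out 1 library turned the sign within ranges of -0.074 to 0.065 for Trap1, -0.15 to 0.28 for Clpp, -0.11 to 0.032 for Clpx, -0.50 to 0.19 for Dnajc30, -0.40 to 0.20 for Dnlz, -0.21 to 0.16 for Atf4, -0.39 to 0.77 for Ddit3, -0.10 to 0.23 for Hspa8, -0.25 to 0.22 for Hsp90aa1, -0.29 to 0.058 for Hsp90ab1 and -0.051 to 0.30 for Hsp90b1. The cause of these turns was not tested. The correlation with Hspd1 moved by over 0.1 with TMM rescaling for Clpp (-0.66), Afg3l2 (0.42) and Htra2 (0.48).

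With 3 libraries a population and pairs that differ by up to 0.69 on the log2 scale, the intervals of the members without the block are wider than most of their differences. A fold that misses the threshold here does not show that the populations are alike. Each member had at least 1112 reads in every library.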
